A study of Mus musculus with 4 samples.

Results

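The genes described here encode enzymes of the tricarboxylic acid (TCA) cycle, of the cytosolic and mitochondrial steps that feed malate, citrate and NADPH, of glutamine and glutamate metabolism, and of the pentose phosphate pathway. They were chosen by name, as a fixed list of 33 symbols, with earlier results of these data known. All 33 were found among the 23377 genes of the count table. Polyadenylated RNA was sequenced from mouse cancer-associated fibroblasts (CAFs), the fibroblasts that live within a tumour, in a study whose title links lactate secreted by tumour cells to adaptive resistance against MET and EGFR inhibition. The 2 libraries titled RES4 carry a phenotype label for resistant tumours, and the 2 titled WTA carry one for normal tumours. The labels name no strain, genotype, age, treatment, sort or culture for either group, and both groups share the same cell type label. The design text calls the replicates biological but ties them to no animal, tumour or culture, so the p-values reflect no more than how far these libraries varied, and each group may stand for 1 tumour or culture.

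The TCA cycle oxidises acetyl groups in mitochondria through citrate, oxoglutarate, succinate, fumarate and malate, and its intermediates also leave the mitochondrion as building blocks. Glutamine enters the cycle as glutamate and oxoglutarate, and glutamine synthetase runs the opposite step. The oxidative branch of the pentose phosphate pathway makes NADPH and ribulose phosphate, while transketolase and transaldolase of the non-oxidative branch exchange carbon with glycolysis. In tumours, CAFs are known to take up and release lactate, glutamine and other metabolites in exchange with cancer cells.

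Library totals ran from 2785936 to 5558541 reads. The summed level of 10 fibroblast markers was 8628 and 9347 CPM (read counts per megaread, with library sizes scaled by edgeR's TMM factors) in the resistant group, against 3206 and 3881 CPM in the normal group, and all 9 markers tested were higher in the resistant group. Their log2 fold changes (resistant minus normal) ran from 0.66 for Col1a1 to 7.96 for Dcn, which encodes the fibroblast proteoglycan decorin. Dcn had 3 reads and 1 read in the normal libraries, where Col1a1 still had 1180 and 965 CPM. For 9 markers of Schwann cells and the neural crest, the resistant libraries summed to 8.44 and 8.75 CPM and the normal libraries to 1106 and 1249 CPM, with all 6 markers tested lower in the resistant group. Epcam, Cdh1 and Krt5 of 7 epithelial markers, and Ptprc and Emr1 of 6 leukocyte markers, had no read in any library, and 5 endothelial markers summed to at most 2.66 CPM. The leukocyte list summed to 19.8 and 29.0 CPM in resistant and 8.42 and 9.59 CPM in normal libraries, and the epithelial list to 45.7 and 63.9 against 9.66 and 9.26 CPM, of which Krt19 gave 45.7 and 63.9 against 6.44 and 6.40 CPM. Krt14 went the other way from Krt19, with 0 and 0 reads in resistant and 12 and 15 reads in normal libraries, too few to test. Of the 3 leukocyte markers tested, Lyz2 was higher in the resistant group, with 20 and 21 against 2 and 7 reads. The others, Cd68 and Csf1r, did not pass the test. A list of 5 glial markers summed to 54.0 and 64.2 CPM against 12.1 and 9.09 CPM. Most of this came from Aldh1l1 (36.1 and 42.2 against 6.19 and 5.22 CPM) and Slc1a3 (16.7 and 21.3 against 1.98 and 0.505 CPM). Gfap, Aqp4 and Slc1a2 had too few reads to test, and Gfap went the other way, with 0 and 1 against 13 and 12 reads. The fibroblast and Schwann cell lists moved with the groups, and the part of any of these marker lists in the results below was not tested. Fewer cells of a type and less RNA per cell cannot be told apart in bulk RNA.

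Of the 33 enzyme genes, all passed the filter on low counts, 3 rose and 4 fell in resistant tumour CAFs, and 26 did not pass the test. Idh1, Pcx and Glul were higher. Me3, Glud1, Gpt2 and Taldo1 were lower. The test was edgeR's quasi-likelihood F test with Benjamini-Hochberg adjustment over the 12001 genes tested and a threshold of 0.05, and every adjusted p below without another tool named comes from it. The 7 calls are 21.2% of the list, against 29.4% of all genes called in this comparison, 15.5% higher and 13.9% lower. The median log2 fold change was -0.11 for the list and 0.00 for all genes, and the median absolute log2 fold change was 0.43 for the list and 0.61 for all genes. Changes of at least 2-fold made up 6 of the 33 genes, or 18.2%, against 33.1% of all genes tested. The CPM ranges of the groups did not overlap for 20 of the 33, or 60.6%, against 64.7% of all genes. Whether these shares differ from those of all genes was not tested, and without resistant replicate 2 the calls in the list numbered 3 higher and 7 lower.

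**Figure D1:**
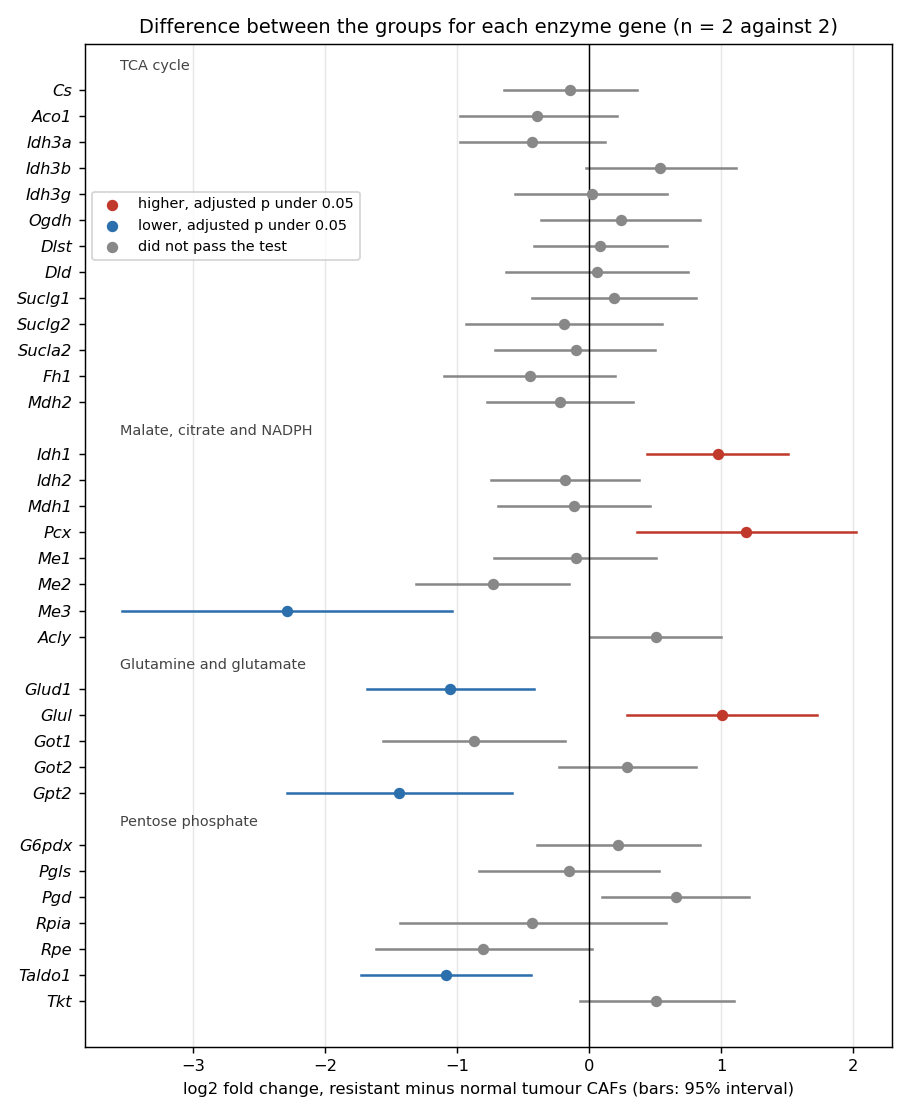
Log2 fold change of each enzyme gene, resistant minus normal tumour CAFs, with its 95% interval as a bar, from 2 libraries in each group. Genes are ordered by pathway, colours mark the 3 genes higher (red) and 4 genes lower (blue) past an adjusted p of 0.05, and the 13 TCA cycle genes all lie within -0.45 to 0.54.

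Most of the 7 calls were lost when a normal library was left out. The number of genes called in the whole table fell in these fits too. Without normal replicate 2, none of the 7 genes passed, with adjusted p from 0.152 for Taldo1 to 0.512 for Glul. Without normal replicate 1, Me3 and Gpt2 still passed, and the other 5 had adjusted p from 0.0679 for Glud1 to 0.393 for Pcx. Without resistant replicate 1 all 7 passed, and without resistant replicate 2 all but Me3 did (adjusted p = 0.0660). Such a fit takes its spread from the group that still has 2 libraries. Across genes, the SD of the log2 difference between replicates was 0.772 for the resistant pair and 0.530 for the normal pair. The log2 fold changes kept their sign in every fit. Those of Idh1 stayed within 0.88 to 1.04, of Pcx within 1.01 to 1.28 and of Glul within 0.89 to 1.03 when 1 library was left out. Those of Me3 lay between -2.76 and -1.73, of Glud1 between -1.33 and -0.83, of Gpt2 between -2.13 and -0.97, and of Taldo1 between -1.40 and -0.82.

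**Figure D2:**
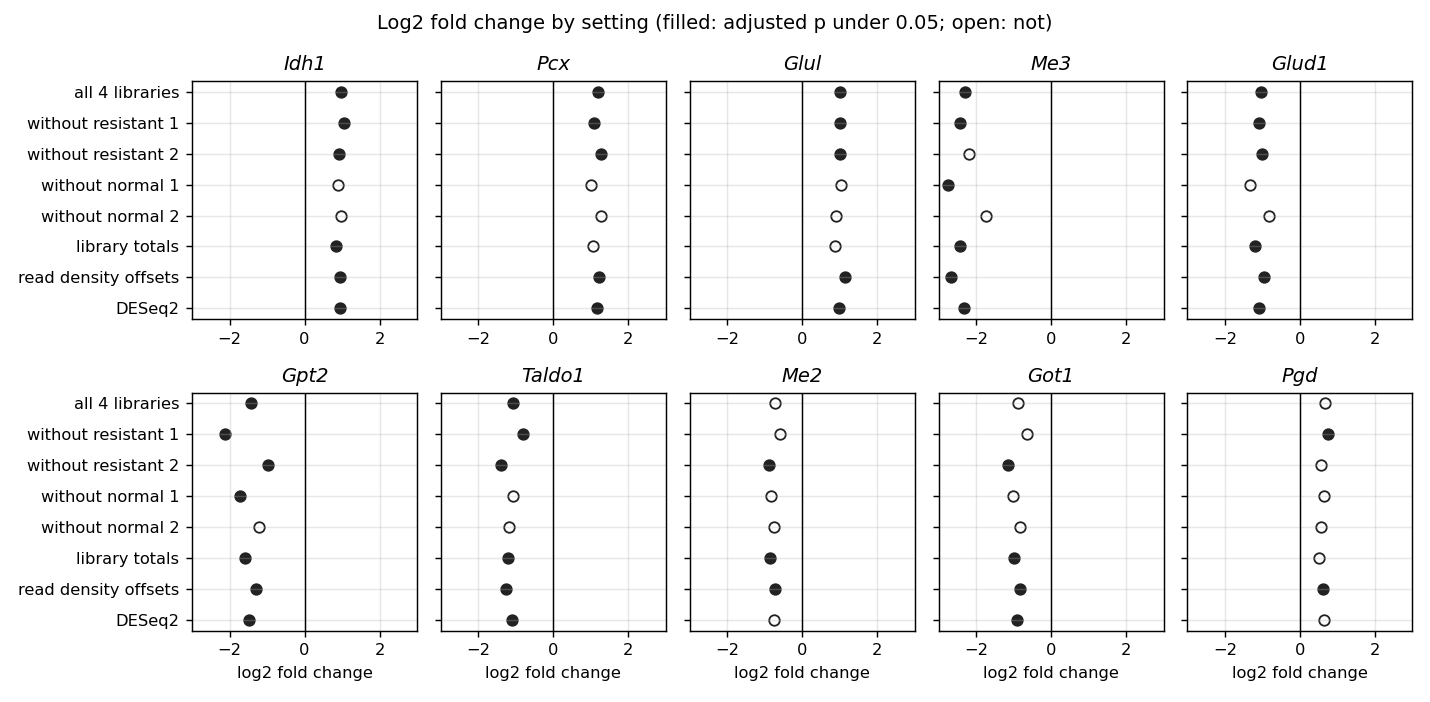
Log2 fold change of the 7 called genes and of Me2, Got1 and Pgd, the 3 next in adjusted p, under the fit on all 4 libraries, with each library left out, and under 3 other settings. Filled points have an adjusted p under 0.05; the points of each gene stay on 1 side of 0, while most turn open without a normal library.

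Promoter sequences are shown for 2 pairs of enzymes that moved in opposite directions, Idh1 with Taldo1 and Glul with Glud1, and for G6pdx, the entry enzyme of the pentose phosphate pathway, which did not pass the test. Each is the RefSeq window on build GRCm38.p6 from 250 bases before to 50 bases after the most upstream listed gene start, written in the direction of transcription; the read counts themselves were made on build mm9. Capitals mark matches on either strand to CCAAT, the box bound by the factor NF-Y, or to TGACNNNGC, the core of the antioxidant response element bound by NRF2, a factor known to drive pentose phosphate genes.
Idh1, chr1:65186430-65186729, minus strand: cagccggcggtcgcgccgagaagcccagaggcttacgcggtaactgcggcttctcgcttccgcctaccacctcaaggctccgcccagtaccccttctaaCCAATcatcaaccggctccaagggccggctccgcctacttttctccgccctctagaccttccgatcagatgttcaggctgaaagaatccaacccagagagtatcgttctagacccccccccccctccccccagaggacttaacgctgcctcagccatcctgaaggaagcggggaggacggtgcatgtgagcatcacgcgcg
Taldo1, chr7:141391910-141392209, plus strand: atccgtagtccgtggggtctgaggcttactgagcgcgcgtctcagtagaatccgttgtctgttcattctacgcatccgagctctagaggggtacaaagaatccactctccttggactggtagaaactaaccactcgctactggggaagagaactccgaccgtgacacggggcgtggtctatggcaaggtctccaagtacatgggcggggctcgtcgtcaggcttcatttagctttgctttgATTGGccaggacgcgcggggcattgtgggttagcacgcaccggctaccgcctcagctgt
Glul, chr1:153899679-153899978, plus strand: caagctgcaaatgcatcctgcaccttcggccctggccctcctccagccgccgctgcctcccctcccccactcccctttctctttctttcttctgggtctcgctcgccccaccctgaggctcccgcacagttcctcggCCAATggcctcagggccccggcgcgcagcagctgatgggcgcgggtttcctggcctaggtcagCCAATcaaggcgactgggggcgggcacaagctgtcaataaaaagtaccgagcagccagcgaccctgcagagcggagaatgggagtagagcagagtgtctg
Glud1, chr14:34310477-34310776, plus strand: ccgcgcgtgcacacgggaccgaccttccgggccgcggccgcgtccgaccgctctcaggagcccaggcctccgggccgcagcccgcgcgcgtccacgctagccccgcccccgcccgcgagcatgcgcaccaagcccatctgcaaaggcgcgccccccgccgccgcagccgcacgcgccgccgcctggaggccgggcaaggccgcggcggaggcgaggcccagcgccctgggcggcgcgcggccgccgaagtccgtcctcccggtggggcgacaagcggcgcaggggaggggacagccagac
G6pdx, chrX:74428831-74429130, minus strand: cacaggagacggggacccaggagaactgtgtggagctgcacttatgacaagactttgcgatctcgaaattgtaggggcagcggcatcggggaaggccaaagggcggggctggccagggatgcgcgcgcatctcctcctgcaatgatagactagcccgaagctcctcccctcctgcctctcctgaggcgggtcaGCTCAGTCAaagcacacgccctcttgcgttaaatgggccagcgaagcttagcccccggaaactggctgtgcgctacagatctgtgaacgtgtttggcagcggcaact
The windows of Idh1 and Glul, both higher, and of Taldo1, which was lower, hold CCAAT letters, with 2 matches in Glul. The Glud1 window holds neither motif, and the G6pdx window holds the antioxidant response element letters at 57 bases before the start. RefSeq windows were matched for 31 of the 33 genes, 40 windows in all, since some genes list several starts. CCAAT letters occurred in 23 of these 40 windows, or 57.5%, against 37.4% of all 32851 promoter windows. The 23 windows belong to 17 of the 31 genes. TGACNNNGC occurred in 7 of the 40, those of Dlst, G6pdx, Idh3g, Mdh1, Me1, Pgd and Sucla2, or 17.5% against 12.4%. ACGTG, the core of the hypoxia response element, occurred in 12 of the 40, or 30.0% against 19.6%. The 12 windows belong to only 7 of the 31 genes. Windows of the same gene are not independent, and whether these shares differ from those of all windows was not tested. Of the 7 called genes, none holds the TGACNNNGC letters and Pcx holds ACGTG. A match is a run of letters and says nothing of binding in these cells.

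None of the 13 TCA cycle genes was called by edgeR, and none had an unadjusted p under 0.05. Neither DESeq2 nor limma-voom called any of them. Their log2 fold changes ran from -0.45 for Fh1 to 0.54 for Idh3b, with a median of -0.10, and their 95% intervals together reached from -1.10 to 1.11. Only the intervals of Fh1 and Idh3b reached past a 2-fold change. In counts simulated over genes of all levels, the test recovered 18.2% of 2-fold and 83.3% of 4-fold changes, with 66 genes tested at each size. That simulation gave 135 calls among 11816 genes, where 29.4% of all genes were called in the data. The 33 enzyme genes also had more reads per exonic base, with a median of 0.278 against 0.0637 for all genes tested. The recovered shares therefore do not measure how readily a change in the TCA cycle genes would be found. With 2 libraries in each group, changes of 2-fold or less may still go undetected. The CPM ranges of the groups were apart for 5 of the 13, or 38.5%, against 64.7% of all genes tested. These 5 were Aco1, Idh3a, Idh3b, Fh1 and Mdh2.

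Cs encodes citrate synthase, which condenses acetyl-CoA with oxaloacetate. It stood at 325 and 279 CPM in resistant replicates 1 and 2 and at 341 and 323 CPM in normal replicates 1 and 2, a log2 fold change of -0.14 ± 0.23 (SE). The groups overlapped. Aco1 encodes the cytosolic aconitase, which doubles as the iron regulatory protein, and had 122 and 133 CPM in resistant against 154 and 180 CPM in normal libraries (-0.39 ± 0.27, adjusted p = 0.332).

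The 3 subunits of the NAD-dependent isocitrate dehydrogenase, which sets the pace of the cycle, did not line up. Idh3a, the catalytic subunit gene, had 172 and 211 CPM in resistant and 273 and 243 CPM in normal libraries, a log2 fold change of -0.43 ± 0.25. Idh3b, a second subunit gene, had 200.1 and 201 CPM in resistant and 142 and 134 CPM in normal libraries, a log2 fold change of 0.54 ± 0.26. Idh3g, the third, had overlapping values of 169 and 218 against 202 and 179 CPM, and its log2 fold change was 0.02 ± 0.26. The Idh3a and Idh3b ranges were apart in opposite directions, with adjusted p = 0.236 and 0.144, so neither passed the test, and the difference between the subunits was not tested.

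Ogdh, Dlst and Dld encode the 3 components of the oxoglutarate dehydrogenase complex. Their log2 fold changes were 0.24 ± 0.28, 0.08 ± 0.23 and 0.06 ± 0.32, and the groups overlapped for each. Dld, whose product also serves pyruvate dehydrogenase, differed most within a group, with 129 and 247 CPM in resistant replicates 1 and 2 against 169 and 191 CPM in the normal libraries. Its log2 fold change was -0.49 without resistant replicate 2, 0.46 without resistant replicate 1 and -0.08 without normal replicate 1, so no direction can be given for it.

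Succinyl-CoA ligase pairs the alpha subunit of Suclg1 with the GTP-forming beta subunit of Suclg2 or the ATP-forming one of Sucla2. Suclg1 stood at 0.19 ± 0.29, Suclg2 at -0.19 ± 0.34 and Sucla2 at -0.10 ± 0.28 on the log2 scale, none past the test. Per exonic length, Suclg2 made up 22.4% and 19.0% of the 2 beta subunits in resistant and 19.8% and 23.1% in normal libraries, overlapping shares. The ATP-forming subunit was thus the more abundant transcript in each of the 4 libraries.

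Fh1, which encodes fumarase, had 98.5 and 154 CPM in resistant and 181 and 164 CPM in normal libraries, or -0.45 ± 0.30 on the log2 scale (adjusted p = 0.295). It was called lower without resistant replicate 2 (-0.81, adjusted p = 0.0342) and stood at -0.16 without resistant replicate 1. Mdh2, the mitochondrial malate dehydrogenase gene that closes the cycle, had 179 and 232 CPM against 244 and 235 CPM (-0.22 ± 0.25). Fh1 and Mdh2 both stood lower in resistant replicate 1 than in replicate 2.

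This held for most of the list. In resistant tumour CAFs, 11 of the 13 TCA cycle genes and 23 of all 33 genes were higher in replicate 2 than in replicate 1, against 46.8% of all genes tested, with median log2 differences of 0.30, 0.19 and -0.05. In normal tumour CAFs the same counts were 4 of 13 and 16 of 33, against 50.2% of all genes. The median log2 fold change of the list was -0.34 without resistant replicate 2 and 0.03 without resistant replicate 1, while that of all genes was -0.03 and -0.02. The small negative median of the list with all libraries was thus not kept without resistant replicate 1. Which of the 2 resistant libraries stands apart was not tested.

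**Figure D3:**
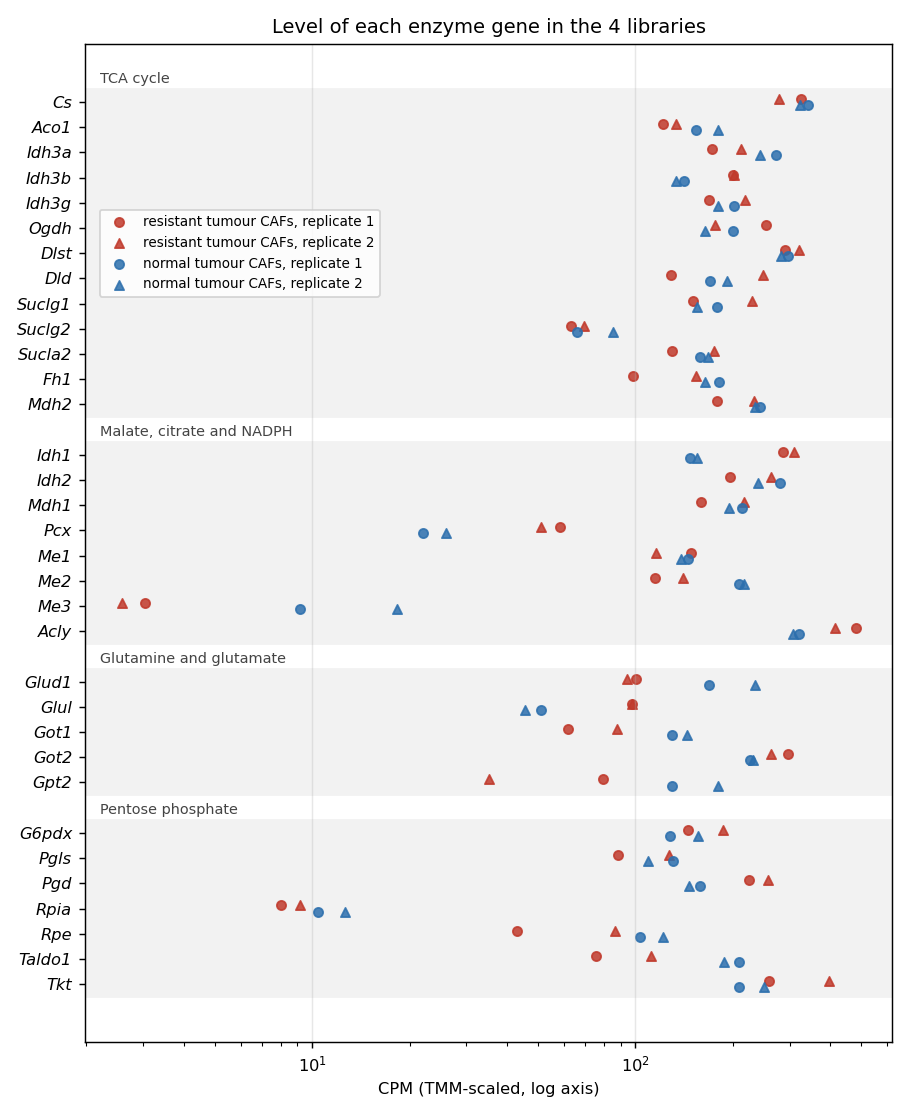
CPM of each enzyme gene (log axis) in resistant (red) and normal (blue) tumour CAFs, with circles for replicate 1 and triangles for replicate 2. The TCA cycle genes lie between 63.2 and 341 CPM with groups close together. The 2 colours do not overlap for 20 of the 33 genes, or 60.6%, against 64.7% of all genes tested. Among the 20 are Idh1, Pcx, Glul, Me3, Glud1, Gpt2 and Taldo1, and 5 of the 13 TCA cycle genes.

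Among the genes around the cycle, Idh1 and Pcx rose and Me3 fell. Idh1 encodes the cytosolic NADP-dependent isocitrate dehydrogenase, which makes NADPH from isocitrate. It had 286 and 310.1 CPM in resistant replicates 1 and 2 and 148 and 155 CPM in normal replicates 1 and 2. Both resistant libraries lay above both normal ones, the log2 fold change was 0.98 ± 0.25 (1.97-fold, 95% interval 0.44 to 1.51), and the adjusted p was 0.0095. Idh2, which encodes the mitochondrial enzyme of the same reaction, had 196 and 263 CPM against 280.2 and 239 CPM, an overlapping range, with -0.18 ± 0.26 (adjusted p = 0.658).

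Per exonic length, Idh1 made up 50.7% and 45.4% of the summed Idh1 and Idh2 level in resistant replicates 1 and 2, and 27.1% and 31.4% in normal replicates 1 and 2. The cytosolic form thus took 48.0% ± 3.73 (SD, n = 2) against 29.2% ± 3.03 of the pair. These groups did not overlap, but with 2 libraries against 2 the two-sided exact permutation p of 0.333 is the smallest the design allows, for this share and for each of the 9 shares computed.

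Pcx encodes pyruvate carboxylase, which refills oxaloacetate from pyruvate. It had 58.6 and 51.0 CPM in resistant and 22.1 and 25.9 CPM in normal libraries. The groups were apart, and the log2 fold change was 1.19 ± 0.38 (2.28-fold, adjusted p = 0.0336). The call was lost with library totals as the scaling (1.05, adjusted p = 0.0583). Per length, Pcx stayed among the lowest genes of the list in both groups, at 12.9 and 5.65 RPKM (CPM per kilobase of exon).

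The 3 malic enzymes turn malate into pyruvate in different compartments. Me1, the cytosolic NADP enzyme gene, had 148 and 116 CPM in resistant and 145 and 139 CPM in normal libraries, overlapping values with a log2 fold change of -0.10 ± 0.28. Me2, which encodes the mitochondrial NAD enzyme, had 115 and 140.2 CPM against 209 and 216 CPM, and its log2 fold change of -0.73 ± 0.27 had an adjusted p of 0.0568, just short of the threshold. Without resistant replicate 2 it passed (-0.88, adjusted p = 0.0240), and it also passed with library totals, no low-count filter, limma-voom, the replicate block and offsets for read density (adjusted p = 0.0233, 0.0389, 0.0483, 0.0315 and 0.0297).

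Me3, which encodes the mitochondrial NADP malic enzyme, was scarce. It had 8 and 7 reads in the resistant libraries and 37 and 109 reads in the normal libraries, or 3.04 and 2.57 against 9.17 and 18.3 CPM. The normal replicates differed, but both lay above the resistant ones, and the log2 fold change was -2.29 ± 0.58 (4.90-fold lower, adjusted p = 0.0094). It was the single member called by edgeR's glmTreat against a log2 fold change of 1, an alternative chosen after seeing the data, by which 15.9% of all genes were called. Of its exonic bases, 8.72% overlap the opposite-strand gene A230065N10Rik, and whether the counting used strand is not given in the sources used here. Me1 took 48.1% and 37.4% of the per-length sum of the 3 malic enzymes in resistant and 33.1% and 30.9% in normal libraries, Me2 took 51.1% and 61.9% against 65.2% and 65.8%, and Me3 at most 3.29%.

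Acly encodes ATP citrate lyase, which splits exported citrate into acetyl-CoA, and had the highest CPM of the list in resistant tumour CAFs. Its values were 480.2 and 414 CPM against 322 and 308 CPM, with groups apart, a log2 fold change of 0.51 ± 0.23 and an adjusted p of 0.118. Mdh1, which encodes the cytosolic malate dehydrogenase, overlapped, with 159 and 217 against 213 and 194 CPM (-0.11 ± 0.27). Per length Mdh1 made up 38.0% and 39.0% of Mdh1 and Mdh2 in resistant and 37.5% and 36.2% in normal libraries.

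The 5 genes of glutamine and glutamate metabolism all had group ranges apart, and 1 rose and 2 fell, where 64.7% of all genes had ranges apart and 29.4% were called. Glul encodes glutamine synthetase, which makes glutamine from glutamate and ammonia. It had 97.4 and 97.3 CPM in resistant and 51.0 and 45.6 CPM in normal libraries, or 1.01 ± 0.33 on the log2 scale (2.01-fold, adjusted p = 0.0371). The call was lost with library totals (0.88, adjusted p = 0.0756) and with no low-count filter (0.95, adjusted p = 0.0577).

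Glud1 encodes glutamate dehydrogenase, which turns glutamate into oxoglutarate. It had 100.5 and 94.3 CPM in resistant and 169 and 234 CPM in normal libraries, with a log2 fold change of -1.05 ± 0.29 (2.07-fold lower, adjusted p = 0.0155). Glul and Glud1 therefore moved in opposite directions. Per length, Glul made up 54.1% and 55.6% of the sum of both in resistant and 26.8% and 19.2% in normal libraries. Glud1 was thus the more abundant transcript of the pair in the normal libraries. In the resistant libraries Glul led only per length. In CPM the pair was close there, at 97.4 and 97.3 for Glul and 100.5 and 94.3 for Glud1, so that order depends on the lengths used.

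Gpt2, which encodes the mitochondrial alanine aminotransferase, had 79.5 and 35.2 CPM in resistant and 129.6 and 181 CPM in normal libraries. The resistant replicates differed from each other by more than 2-fold, yet both lay below the normal ones, and the log2 fold change was -1.44 ± 0.39 (2.71-fold lower, adjusted p = 0.0153). Without resistant replicate 1 it was -2.13 and without resistant replicate 2 it was -0.97. Both fits passed the test.

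The aspartate aminotransferases carry the malate-aspartate shuttle between cytosol and mitochondrion. Got1, the cytosolic form, had 61.6 and 87.7 CPM in resistant and 129 and 144 CPM in normal libraries, and its log2 fold change of -0.87 ± 0.32 had an adjusted p of 0.0568. It passed without resistant replicate 2 (-1.15, adjusted p = 0.0137) and with DESeq2 (adjusted p = 0.0469), limma-voom, library totals, no low-count filter, the replicate block and read density offsets. Got2, the mitochondrial form, had 296 and 262 CPM against 227 and 231 CPM, a log2 fold change of 0.29 ± 0.24 that did not pass. Per length, Got1 made up 20.4% and 29.1% of the pair in resistant and 41.2% and 43.4% in normal libraries, shares that did not overlap. For Got2, 15.0% of the exonic bases overlap the opposite-strand gene Gm45760.

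**Figure D4:**
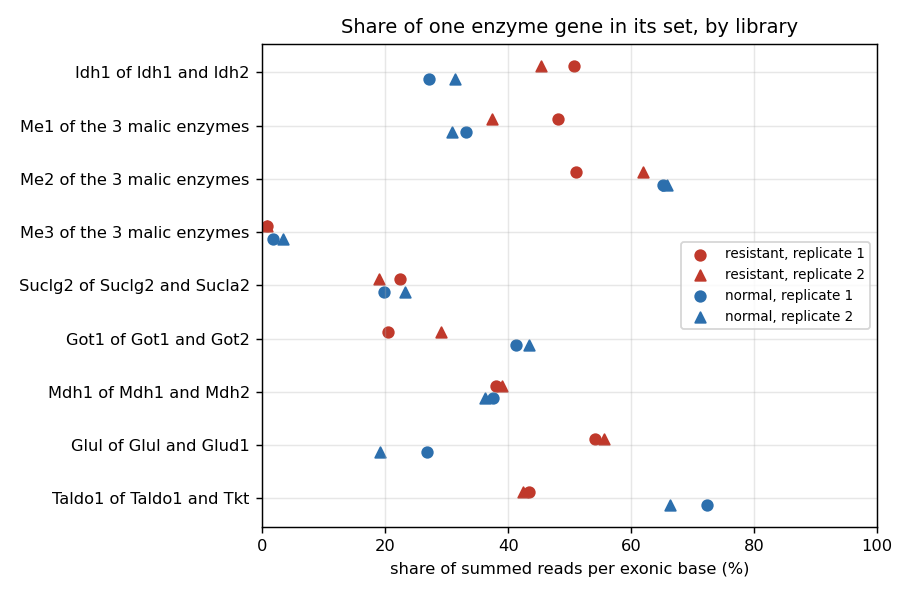
Share of the first-named gene in the summed reads per exonic base of its set, in percent, for each resistant (red) and normal (blue) library, with circles for replicate 1 and triangles for replicate 2. Idh1, Got1, Glul and Taldo1 show the groups apart by the widest gaps, and the Suclg2 shares overlap.

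Of the 7 pentose phosphate genes, Taldo1 fell and the other 6 did not pass the test. In the oxidative branch, G6pdx encodes glucose phosphate dehydrogenase, which commits glucose to the pathway, and overlapped between groups with 145 and 186 against 128 and 156 CPM (0.22 ± 0.28). Its near-identical retrogene G6pd2 had at most 2 reads in any library, and how reads that fit both copies were counted is not given. Pgls, the lactonase gene, overlapped too (-0.15 ± 0.31). Pgd encodes phosphogluconate dehydrogenase, the other NADPH-making step. It had 224 and 256 CPM against 159 and 146 CPM, with groups apart, a log2 fold change of 0.66 ± 0.25 and an adjusted p of 0.0719. It passed without resistant replicate 1 (0.76, adjusted p = 0.0220) and with read density offsets (0.62, adjusted p = 0.0468).

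In the non-oxidative branch, Taldo1 encodes transaldolase. It had 75.3 and 112 CPM in resistant and 208 and 188 CPM in normal libraries, a log2 fold change of -1.08 ± 0.30 (2.12-fold lower, 95% interval -1.73 to -0.44, adjusted p = 0.0153). Tkt encodes transketolase, which acts on the same sugar phosphates, and lay on the other side of 0, with 258 and 397 against 209 and 249.6 CPM, a log2 fold change of 0.51 ± 0.27 and an adjusted p of 0.182. Tkt passed without resistant replicate 1 (0.80, adjusted p = 0.0224) and stood at 0.17 without resistant replicate 2. Per length, Taldo1 made up 43.4% and 42.4% of the sum of Taldo1 and Tkt in resistant and 72.3% and 66.4% in normal libraries.

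Rpe, the ribulose phosphate epimerase gene, had 43.0 and 86.3 CPM against 103 and 122 CPM and a log2 fold change of -0.80 ± 0.37 (adjusted p = 0.135). It passed without resistant replicate 2 (-1.39, adjusted p = 0.0108) and with the replicate block (-0.87, adjusted p = 0.0334), and stood at -0.38 without resistant replicate 1; 20.5% of its exonic bases overlap the opposite-strand gene Kansl1l. Rpia, the ribose phosphate isomerase gene, had 21 and 25 reads in resistant and 42 and 75 reads in normal libraries (-0.43 ± 0.46, 95% interval -1.43 to 0.58).

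Compared per exonic length, the order of the genes was led by nearly the same enzymes in both groups. Idh3g, Mdh2 and Idh2 stood at 145, 141 and 131 RPKM in resistant tumour CAFs, with replicate values of 127 and 164, 123 and 159, and 112 and 151 that overlap one another. In normal tumour CAFs Mdh2, Taldo1, Idh2 and Idh3g led at 164, 161, 149 and 143 RPKM, where each gene's replicates overlapped those of the next. Taldo1 held rank 2 of 33 in normal and rank 16 in resistant tumour CAFs, and Idh1 rank 21 in normal and rank 6 in resistant ones. Me3 was last in both groups, at 0.626 and 3.07 RPKM.

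The partner genes of the same pathways were read from 4 lists of enzymes and carriers outside the 33. Of 49 tested, 11 rose and 5 fell, or 32.7% called, close to the 29.4% of all genes. Of 13 genes around the TCA cycle, 2 rose and 1 fell. Sdhaf1, which encodes an assembly factor of succinate dehydrogenase, had 6.47 and 2.94 CPM in resistant and 36.9 and 36.9 CPM in normal libraries (-2.97 ± 0.50, adjusted p = 7.29e-04). The 4 subunit genes Sdha, Sdhb, Sdhc and Sdhd did not pass. Adhfe1 and D2hgdh, enzymes that make and remove hydroxyglutarate, had log2 fold changes of 3.19 ± 0.63 and 1.17 ± 0.40; Adhfe1 rested on 20 and 20 reads against 2 and 6. The D2hgdh call (adjusted p = 0.0462) was lost with library totals, no low-count filter, DESeq2 and read density offsets, with adjusted p of 0.0770, 0.0513, 0.0619 and 0.0514.

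Of 20 tested genes of glutamine and amino acid handling, 5 rose and 2 fell. Gfpt1 and Gfpt2, which use glutamine to open the hexosamine pathway, rose by 0.96 ± 0.28 and 1.79 ± 0.35 on the log2 scale. Slc1a3, a glutamate transporter gene that also stands on the glial list, went from 1.98 and 0.505 CPM in normal to 16.7 and 21.3 CPM in resistant libraries (4.01 ± 0.64). Slc38a1, a glutamine transporter gene, went the other way, from 19.1 and 18.0 to 2.28 and 1.10 CPM (-3.43 ± 0.58). Gls2, the liver-type glutaminase gene, had -1.53 ± 0.47. Gpt, the cytosolic alanine aminotransferase gene, rose by 1.64 ± 0.57 on 18 and 33 against 17 and 12 reads, with an adjusted p of 0.0483, where its mitochondrial counterpart Gpt2 fell. The Gpt call was lost with DESeq2 (adjusted p = 0.168) and with read density offsets (adjusted p = 0.114). Pycr1, of proline synthesis, rose by 1.04 ± 0.33, a call lost with library totals (adjusted p = 0.0587).

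Of 10 genes next to the pentose phosphate pathway, 2 rose and 1 fell. Pgm2, a phosphoglucomutase gene, had 277 and 371 CPM in resistant and 64.4 and 67.2 CPM in normal libraries (2.30 ± 0.28, adjusted p = 6.97e-05). H6pd, the endoplasmic reticulum counterpart of G6pdx, rose by 1.18 ± 0.33, and Prps2, which makes phosphoribosyl pyrophosphate, had -0.83 ± 0.27. Of 6 tested mitochondrial carriers, 2 rose and 1 fell. Slc25a1, the citrate carrier gene, had 348 and 157 CPM against 108 and 113 CPM (1.19 ± 0.35), a call lost with read density offsets (adjusted p = 0.0661), and Slc25a13, an aspartate-glutamate carrier gene, rose by 1.65 ± 0.44. Slc25a10, the dicarboxylate carrier gene, had 25.1 and 39.6 CPM against 103 and 117 CPM (-1.76 ± 0.37).

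Of these 16 partner genes, Sdhaf1, Adhfe1, Slc38a1, Slc1a3 and Pgm2 passed with each of the 4 libraries left out. Without normal replicate 2 these were the only 5, and without normal replicate 1 Slc25a10 passed as well. Without resistant replicate 1, D2hgdh, Gfpt1 and Slc25a1 did not pass (adjusted p = 0.0603, 0.0697 and 0.0848), and without resistant replicate 2, Gls2, Gpt and Prps2 did not (adjusted p = 0.0886, 0.251 and 0.0538). The fitted value of Slc25a1 was 1.65 without resistant replicate 2 and 0.52 without resistant replicate 1.

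**Figure D5:**
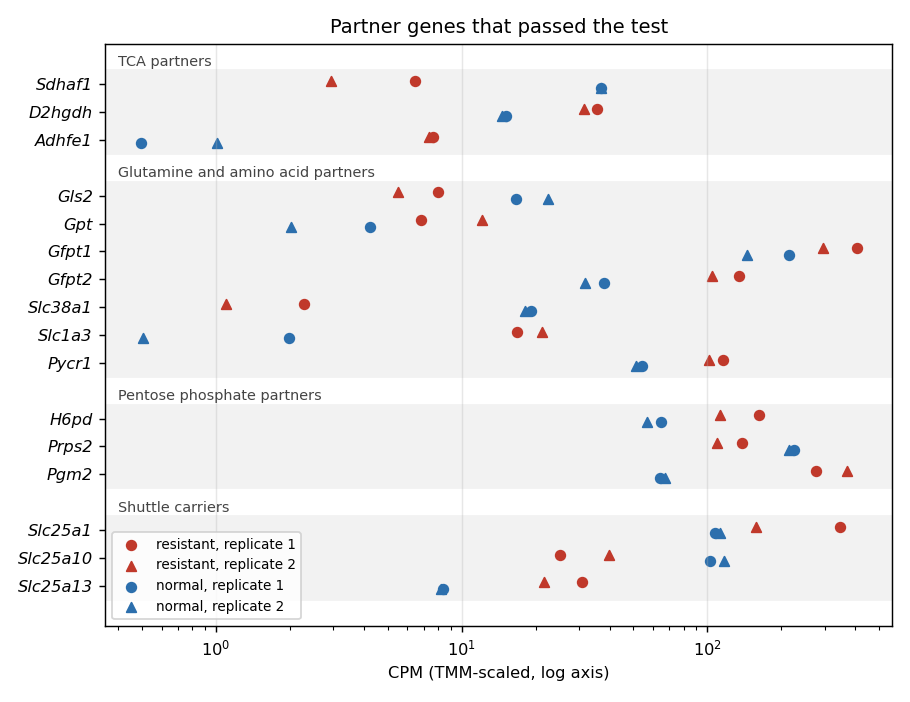
CPM (log axis) of the 16 partner genes that passed the test, in resistant (red) and normal (blue) libraries, with circles for replicate 1 and triangles for replicate 2. Sdhaf1, Slc38a1 and Slc25a10 lie to the left in the resistant libraries, and Pgm2, Slc1a3 and Adhfe1 to the right, each with a gap between the groups.

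In the authors' deposited table none of the 33 enzyme genes was called, against 8.50% of the 15879 genes in it. Its statistic equals the excess of the absolute log2 fold change over 1 divided by its SE, within a tolerance of 0.05 plus 5%, for every gene, so the authors' test asked for a change of more than 2-fold. The authors' deposited table gives a statistic of 0 for 28 of the 33 genes. The smallest absolute log2 fold change called there was 2.00, which among the 33 only Me3 exceeded. Me3 had the smallest adjusted p of the 33 in the authors' deposited table, 0.618, with a log2 fold change of -2.33, and each of the other 32 had an adjusted p of 1 there.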

How the data were processed

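Raw counts of reads per gene symbol, as deposited, were used for 2 resistant and 2 normal libraries, with groups and replicate numbers from the sample titles. The submitters' processing notes list mm9 as build, HTSeq 0.7.2, TopHat2 2.1.1, bcl2fastq 2 and Picard 1.62, and also DESeq2. Settings, annotation and strand are unknown here. The labels describe both a TruSeq and a SMART-seq2 preparation without assigning either to a library. The log2 fold changes, the statistic (a score) and the p-values in the authors' deposited table are quoted only where named.

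The counts were tested with edgeR 4.0.16 (R 4.3.3, limma 3.58.1): filterByExpr with a minimum count of 10, TMM scaling, then glmQLFit and glmQLFTest on group alone. SE is the absolute log2 fold change over the square root of F. Exonic lengths are unions of RefSeq-linked GENCODE M21 transcripts (GRCm38), found by symbol for 99.4% of the genes tested; they served only as lengths. Tkfc and Tigar were read as Dak and 9630033F20Rik. Named were all 33 members and every partner gene past the threshold. A count of 3 reads equals 0.505 CPM in normal replicate 2 and up to 1.14 CPM in resistant replicate 1, and such floors cover counting error only.

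Alternatives were other scaling factors and filters, DESeq2 1.42.0, limma-voom, the replicate number as a block, each library left out, and offsets from a loess curve (span 0.5) fitted in each library against read density, the reads per exonic base. The scripts were tested on simulated data. The members and lists were chosen with earlier results of these data known. Some genes on these lists are counted but not reported here by name.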

Additional observations from a re-analysis of the deposited data

How the results depend on the processing

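Over 49 genes and their alternatives, 541 of 632 values kept direction and side of the threshold, 51 lost the call, 19 gained one and 21 changed sign. The sign changes were all in genes that were not called. For Idh3g the log2 fold change was -0.11 with library totals, -0.04 with no filter, -0.01 with DESeq2, -0.18 without resistant replicate 2, -0.10 without normal replicate 2 and -0.19 with read density offsets. For Dld it was -0.07 with library totals, -0.02 with limma-voom, -0.01 with the replicate block, -0.49 without resistant replicate 2 and -0.08 without normal replicate 1. Dlst had -0.05 with library totals and -0.03 with density offsets, and Me1 had 0.06 without resistant replicate 2 and 0.02 with density offsets. Suclg1 had -0.15 without resistant replicate 2. Without resistant replicate 1, Ogdh had -0.04, Sucla2 0.10, Idh2 0.03, Mdh1 0.10 and Pgls 0.10. With 1 library left out, these genes thus ranged from -0.18 to 0.20 (Idh3g), -0.49 to 0.46 (Dld), -0.28 to 0.06 (Me1), -0.15 to 0.46 (Suclg1), -0.04 to 0.47 (Ogdh), -0.34 to 0.10 (Sucla2), -0.41 to 0.03 (Idh2), -0.35 to 0.10 (Mdh1) and -0.44 to 0.10 (Pgls).

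With 1 library left out, 1078 to 2024 genes were called higher and 951 to 2323 lower over all genes, and 0 to 5 and 0 to 7 of the 33 enzymes. Partner genes ranged from 1 to 3 higher around the TCA cycle, 1 to 4 higher and 1 to 5 lower for glutamine, 1 to 2 higher and 0 to 3 lower for pentose phosphate, and 0 to 2 higher and 0 to 1 lower for carriers. Library totals, which moved the median of all genes to -0.14, left 1 enzyme higher and 6 lower, and called 1736 genes higher and 2150 lower. With glmTreat, 0 enzymes were higher and 1 lower. TCA partners higher numbered 1 with library totals, no filter, at least 50 reads in 2 libraries, DESeq2 and density offsets. Glutamine partners higher numbered 3 with at least 50 reads, where Gpt and Slc1a3 were not tested, nor was Me3 among the enzymes. Pentose phosphate partners lower numbered 2 with upper-quartile factors and density offsets, and 3 with library totals, no filter, limma-voom and the replicate block. Carriers higher numbered 1 with density offsets. Where no construction of the alternative shows it, the cause was not tested.

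With the replicate block, 3 enzymes were higher and 7 lower, and the glutamine partners had 5 higher and 3 lower. Deviations of same-numbered libraries from their group means correlated at 0.204 across genes, and with 2 pairs the numbers are not taken to pair the samples.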
